A study of Mus musculus with 15 samples.

Results

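The genes described here encode 10 enzymes that crosslink or hydroxylate collagen, taken by symbol from the 53465 genes of a normalized count table. They are the lysyl oxidases *Lox*, *Loxl1*, *Loxl2*, *Loxl3* and *Loxl4*, the lysyl hydroxylases *Plod1*, *Plod2* and *Plod3*, and the prolyl 4-hydroxylase alpha chains *P4ha1* and *P4ha2*. All 10 passed the filter on low values, a mean of at least 5 normalized counts, which 25549 genes passed. RNA was sequenced from endovascular progenitor (EVP), transit amplifying (TA) and definitive differentiated (D) cells, the populations of an endothelial hierarchy described in mouse tumors, with 5 libraries of each. The cells were sorted from B16-F0 tumors, grown from a mouse melanoma line in the skin of CAG-GFP mice and collected on day 15. The study used male and female mice of 8 to 14 weeks. Every population was GFP+, negative for hematopoietic lineage markers and CD34+. Within that gate EVP were low for CD31 and VEGFR2, TA were intermediate for CD31 and low for VEGFR2, and D were high for both. GFP is expressed ubiquitously in these mice, so it marks host cells of any type and not endothelium. In other mice, whose endothelial cells were labelled through *Cdh5*, the study reported that most lineage-negative CD34+ tumor cells carried the label. The sequenced cells did not come from those mice. Whether the libraries came from separate animals or pools is not given in the sources used here, so p-values measure the spread between these libraries, which may be technical.

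Collagen chains are modified in the endoplasmic reticulum before they fold. Prolyl 4-hydroxylases modify prolines, which stabilizes the triple helix, and lysyl hydroxylases modify lysines, which sets where sugars and crosslinks can attach. After secretion, copper-dependent lysyl oxidases oxidize lysines and hydroxylysines of collagen and elastin, and the resulting aldehydes form covalent crosslinks between molecules. In tumors this chemistry stiffens the matrix, and vessels rest on a basement membrane of type IV collagen that passes through the same hydroxylation steps. Prolyl and lysyl hydroxylases need oxygen, iron and 2-oxoglutarate, and several of their genes are known targets of hypoxia-inducible factors.

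The letters ACGTG and GCGTG form the core of the element that hypoxia-inducible factors bind. Promoters of *P4ha1* and *P4ha2*, higher in EVP, and of *Plod1*, higher in D, are shown with these letters in capitals on either strand. The 250 bases before the RefSeq start were found for 5 of the 10 genes in GRCm38.p6, and the windows of *P4ha1* (chr10:59323046-59323295, plus strand), *P4ha2* (chr11:54100674-54100923, plus strand) and *Plod1* (chr4:147936777-147937026, minus strand) are given on the strand of the gene.
P4ha1: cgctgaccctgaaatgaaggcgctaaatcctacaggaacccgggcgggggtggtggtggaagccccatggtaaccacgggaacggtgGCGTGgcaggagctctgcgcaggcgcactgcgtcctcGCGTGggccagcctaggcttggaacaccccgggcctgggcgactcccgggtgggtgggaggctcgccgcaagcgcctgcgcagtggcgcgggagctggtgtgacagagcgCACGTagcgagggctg
P4ha2: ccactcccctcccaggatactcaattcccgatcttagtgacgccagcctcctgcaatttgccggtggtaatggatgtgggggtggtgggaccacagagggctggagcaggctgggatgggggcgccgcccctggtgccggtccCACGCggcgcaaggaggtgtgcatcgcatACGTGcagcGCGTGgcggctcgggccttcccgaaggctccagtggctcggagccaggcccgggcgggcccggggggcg
Plod1: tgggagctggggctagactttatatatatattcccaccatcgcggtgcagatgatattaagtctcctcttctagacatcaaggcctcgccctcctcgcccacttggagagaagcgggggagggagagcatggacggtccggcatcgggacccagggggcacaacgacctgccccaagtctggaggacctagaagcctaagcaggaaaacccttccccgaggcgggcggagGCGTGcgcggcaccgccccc
The window of *P4ha1* held 3 matches, that of *P4ha2* held 3 and that of *Plod1* held 1. The match of *Plod1* ran from base -20 to base -16, counted back from the start. *Plod3* held 4 and *Loxl4* held 1, as *Plod1* did, and both genes were higher in EVP than in D. Whether matches go with direction was not tested. Of 32851 such windows of all genes, 38.6% held either motif, 16.6% held the first and 28.2% the second. The first also lies within CACGTG, a motif of other factors. A match describes the letters and is not a shown binding site.

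All 10 genes differed between EVP and D, where 19.0% of all genes tested did (limma, Benjamini-Hochberg adjusted p under 0.05). Higher in EVP were 9 of them, beside 11.6% of all genes, and *Plod1* alone was higher in D, beside 7.46% of all genes. For each of the 10 genes the ranges of EVP and D were separate, as for 17.7% of all genes, of which those higher in EVP were 10.2% and those higher in D 7.52% of the genes tested. On the recovered reads edgeR called the same 10 genes, beside 15.1% of all genes, and DESeq2 did so beside 21.7%. The median log2 fold change of EVP over D was 3.02 for the 10 genes and 0.46 for all genes tested. After quantile normalization the median of all genes was -0.05, with 1920 genes called higher in EVP and 1983 in D in place of 2952 and 1907, and the 10 enzyme genes kept their direction and call. *Plod1* had a log2 fold change of -0.93 as reported and -0.88 after quantile normalization. In bulk samples such as these, fewer cells of a type and less RNA per cell cannot be told apart.

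**Figure D1:**
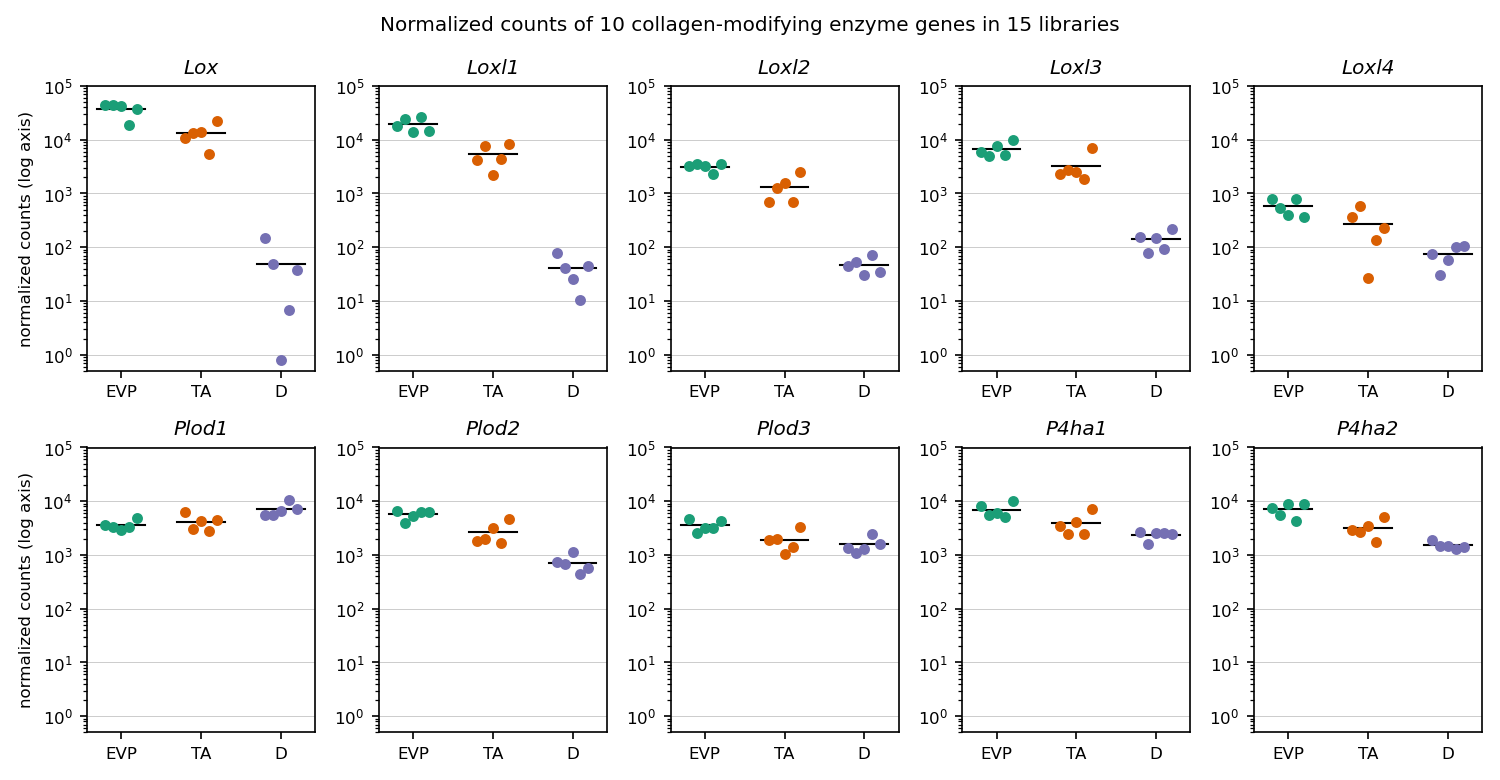
Normalized counts (log axis) of the 10 genes in the 15 libraries, with points for replicates 1 to 5 from left to right in EVP, TA and D, and a line at the mean of each population. Lysyl oxidases other than *Loxl4* fall by over an order of magnitude in D, while *Plod1* is higher in D.

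The sort itself can be read in these libraries. The summed normalized counts of 10 endothelial markers ran from 2385 to 4279 in EVP, from 5979 to 72865 in TA and from 103119 to 163172 in D. The sums of 8 fibroblast markers, among them *Pdgfra*, *Dcn* and *Lum*, ran from 147916 to 398937 in EVP, from 36159 to 114418 in TA and from 235 to 751 in D. Between EVP and D, 9 of the 10 endothelial markers were higher in D and 8 of the 8 fibroblast markers were higher in EVP, and none of these 18 markers was at 0 in all libraries of a population. Summed melanoma markers ran from 29776 to 67410.0 in EVP, from 69334 to 176152 in TA and from 18213 to 47919.9 in D. Mural marker sums ran from 7401 to 34433, from 6212 to 156963 and from 5212 to 10888 in the same order. Leukocyte marker sums ran from 1041 to 7048, from 2951 to 21851 and from 1163 to 2415, and keratinocyte marker sums from 1615 to 8377, from 1574 to 77602 and from 66.1 to 2692. Between EVP and D, 4 of 9 mural, 3 of 5 keratinocyte and 1 of 7 melanoma markers were higher in EVP, and 2 mural markers were higher in D. So between EVP and D the fibroblast markers and some keratinocyte and mural markers moved with the enzyme genes higher in EVP. Endothelial markers moved with *Plod1* in that comparison. Between EVP and TA, 3 of 8 fibroblast markers were higher in EVP, and no marker of the other lists was. Higher in TA were 8 of 10 endothelial, 3 of 7 melanoma, 2 of 9 mural and 2 of 8 leukocyte markers, while *Plod1* was not called. Between TA and D, 7 of 10 endothelial markers and *Plod1* were higher in D. Higher in TA than in D were 8 of 8 fibroblast, 5 of 5 keratinocyte, 7 of 7 melanoma, 6 of 9 mural and 4 of 8 leukocyte markers. Their part in each result below was not tested.

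Between 5394356 and 26513073 reads were counted on genes per library, and 3 reads, taken as the limit of detection, equalled 1.81 to 10.5 normalized counts, which covers counting error only. The 3 replicate 1 libraries stood apart. The predicted gene *Gm10800* took 8.50% to 10.6% of their reads and at most 0.701% in the other 12 libraries. Of 1406 olfactory receptor genes, 75.9% to 96.2% had a read in replicate 1 libraries and 2.70% to 65.1% in the others. Where leaving them out changed a call among the 10 genes, the value without them is given as well.

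*Lox* encodes the founding lysyl oxidase and was the highest of the 10 genes per kb of exon in EVP and in TA. Its normalized counts in EVP replicates 1 to 5 were 44647, 44047, 43004, 18759.6 and 37441. In TA they were 10821, 13296, 13729, 5327 and 22411, and in D they were 149.6, 48.2, 0.782, 6.76 and 38.1. Every D library lay below every EVP and TA library, while the highest TA library exceeded the lowest EVP library. D replicate 3 held 1 read of *Lox*, under the limit of detection. The mean was 772-fold higher in EVP than in D and 1603-fold higher without D replicate 1, and the log2 fold change was 10.74 ± 0.83 (SE, adjusted p = 5.14e-08, limma). This fitted value ranged from 9.60 to 11.38 over 13 alternatives, and was 11.46 without D replicate 1 and 9.86 without D replicate 3. In D, the highest value of *Lox* stood in replicate 1, which also had the highest fibroblast marker sum of that population. The order differed elsewhere, as replicate 3, lowest for *Lox*, had a sum of 363 and replicate 5 a sum of 284. A link was not tested.

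*Loxl1* (chr9:58287738-58313186 in GRCm38), whose product crosslinks elastin fibers, showed the same order with less overlap. Its EVP libraries held 18201, 24649, 14143, 27011 and 14858 normalized counts. The TA libraries held 4254, 7797, 2209.9, 4409.6 and 8362, and the D libraries 79.6, 41.6, 25.8, 10.5 and 45.3. It was the only one of the 10 genes whose libraries did not overlap between any pair of populations. The mean in EVP was 487-fold that in D and 3.66-fold that in TA. The log2 fold change was 9.11 ± 0.44 for EVP over D (SE, adjusted p = 2.33e-10, limma) and 7.14 ± 0.44 for TA over D (adjusted p = 1.43e-08).

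*Loxl2* and *Loxl3* encode lysyl oxidases with scavenger receptor domains and were lower in D by smaller factors. *Loxl2* held 3227, 3557, 3235, 2323 and 3494 normalized counts in EVP, 696, 1246, 1592, 682 and 2499.6 in TA, and 45.3, 53.9, 30.5, 72.9 and 34.4 in D. It varied least among EVP libraries of the 10 genes, with a coefficient of variation of 15.6%. *Loxl3* held 5983, 4924, 7647, 5245 and 9851 in EVP, 2303, 2794, 2509, 1872 and 7052 in TA, and 158, 77.6, 151, 93.2 and 219 in D. For both genes every EVP and TA library exceeded every D library, and TA replicate 5 exceeded the lowest EVP library. EVP means were 66.8-fold and 48.2-fold those of D. Their log2 fold changes were 6.08 ± 0.33 (adjusted p = 1.03e-09) and 5.63 ± 0.34 (adjusted p = 2.94e-09, limma). *Loxl3* shares 535 exon bases with *Htra2* on the opposite strand, which held up to 1716 reads, and since the sources used here do not state strand, reads there cannot be assigned.

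*Loxl4* was the lowest of the 10 genes per kb in EVP and TA and the least separated of the lysyl oxidases. Its values were 786, 530.4, 397, 799 and 369 normalized counts in EVP and 75.5, 30.2, 58.6, 101 and 105 in D. In TA they were 359, 592, 26.8, 138 and 224, a range that covered 3 of the EVP libraries and reached below every D library. The mean was 7.79-fold higher in EVP than in D, with a log2 fold change of 2.99 ± 0.62 (SE, adjusted p = 0.00175, limma).

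**Figure D2:**
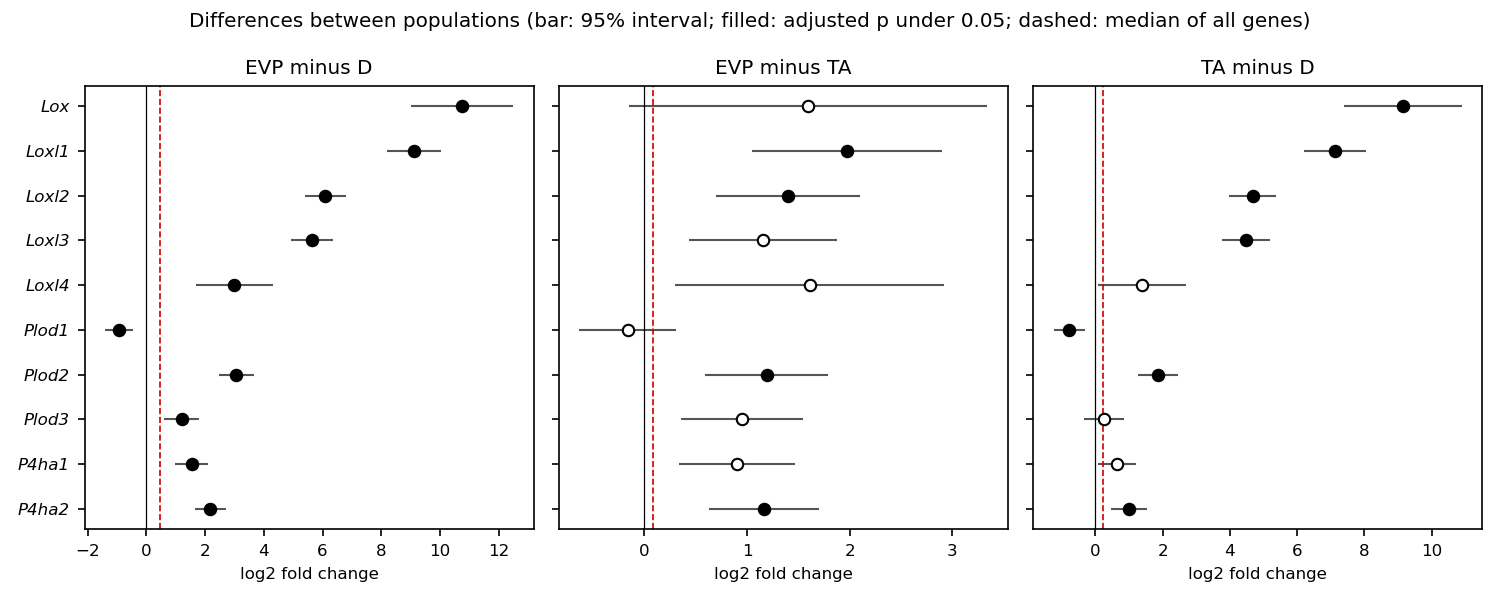
Log2 fold change of each gene between pairs of populations, with 95% intervals from limma. Filled points have an adjusted p under 0.05, and the dashed line marks the median of all 25549 genes tested. Intervals of *Lox*, *Loxl1*, *Loxl2* and *Loxl3* lie well to the right of the others in both comparisons with D, and *Plod1* lies to the left of 0.

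Lysyl hydroxylases moved in both directions. *Plod1* (chr4:147909753-147936767), whose product hydroxylates lysines in the helical part of collagen, had 3560.2, 3378, 2964, 3346 and 4949 normalized counts in EVP, and 5499.8, 5480.2, 6518, 10647 and 7188 in D. All D libraries lay above all EVP libraries. TA libraries held 6195, 3089.9, 4229, 2835 and 4474 and overlapped both. The mean was 1.94-fold higher in D than in EVP, and the log2 fold change of EVP over D was -0.93 ± 0.22 (SE, adjusted p = 0.00568, limma). Without the 6 libraries that had reads on over 50% of the olfactory receptor genes it was -0.98 with an adjusted p of 0.0629. These 6 were EVP replicates 1 and 2, TA replicates 1, 2 and 3, and D replicate 1.

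*Plod2* (chr9:92542223-92608428), whose product hydroxylates the telopeptides at the ends of collagen, went the other way. It held 6706, 3903, 5304, 6288 and 6401 normalized counts in EVP, 1811, 1978, 3204, 1698 and 4588 in TA, and 733, 684, 1118, 436 and 572 in D. Each D library was below each TA library, and TA replicate 5 alone among the TA libraries reached the EVP range. The mean was 8.07-fold higher in EVP than in D, with a log2 fold change of 3.06 ± 0.28 (SE, adjusted p = 4.51e-07, limma). *Plod3*, whose product also transfers sugars to hydroxylysine, ran from 2545 to 4589 in EVP, from 1047 to 3325 in TA and from 1106 to 2505 in D. EVP and D were separated by a narrow gap, and the log2 fold change was 1.21 ± 0.28 (adjusted p = 0.00455). It was 1.07 without the replicate 1 libraries (adjusted p = 0.0605) and 1.19 without the 6 libraries with olfactory receptor reads (adjusted p = 0.0770). *Plod3* shares 529 exon bases with *Znhit1* on the opposite strand, which held up to 1010 reads, and *Plod2* shares 346 with *Gm38391*, which held up to 144.

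Within a library, the share of each lysyl hydroxylase in the class total per kb of exon does not depend on the scaling of that library. *Plod1* made up 22.8% ± 3.80 of the class in EVP, 40.7% ± 9.37 in TA and 68.2% ± 2.40 in D (SD, n = 5). Its share ran from 18.9% to 28.0% in EVP, from 29.4% to 54.7% in TA and from 65.2% to 71.2% in D, so no pair of populations overlapped. *Plod2* made up 44.4% ± 3.59, 31.6% ± 8.20 and 9.30% ± 4.09 in the same order. The class total changed less than its makeup, with 2388 ± 451 normalized counts per kb in EVP, 1537 ± 460 in TA and 1524 ± 409 in D. These shares were not tested.

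The lysyl oxidases showed a change in total as well as in makeup. Their class total was 16047 ± 1777 normalized counts per kb in EVP, 5415 ± 2424 in TA and 79.2 ± 27.3 in D (SD, n = 5). *Lox* and *Loxl1* together led the class in every EVP and TA library. In D, *Loxl3* had the highest mean share with 38.7% ± 11.4, followed by *Loxl4* with 22.9% ± 10.1, which had made up 0.865% ± 0.352 of the class in EVP. The class total of *P4ha1* and *P4ha2* was 2826 ± 759 per kb in EVP, 1469 ± 661 in TA and 817 ± 117 in D.

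**Figure D3:**
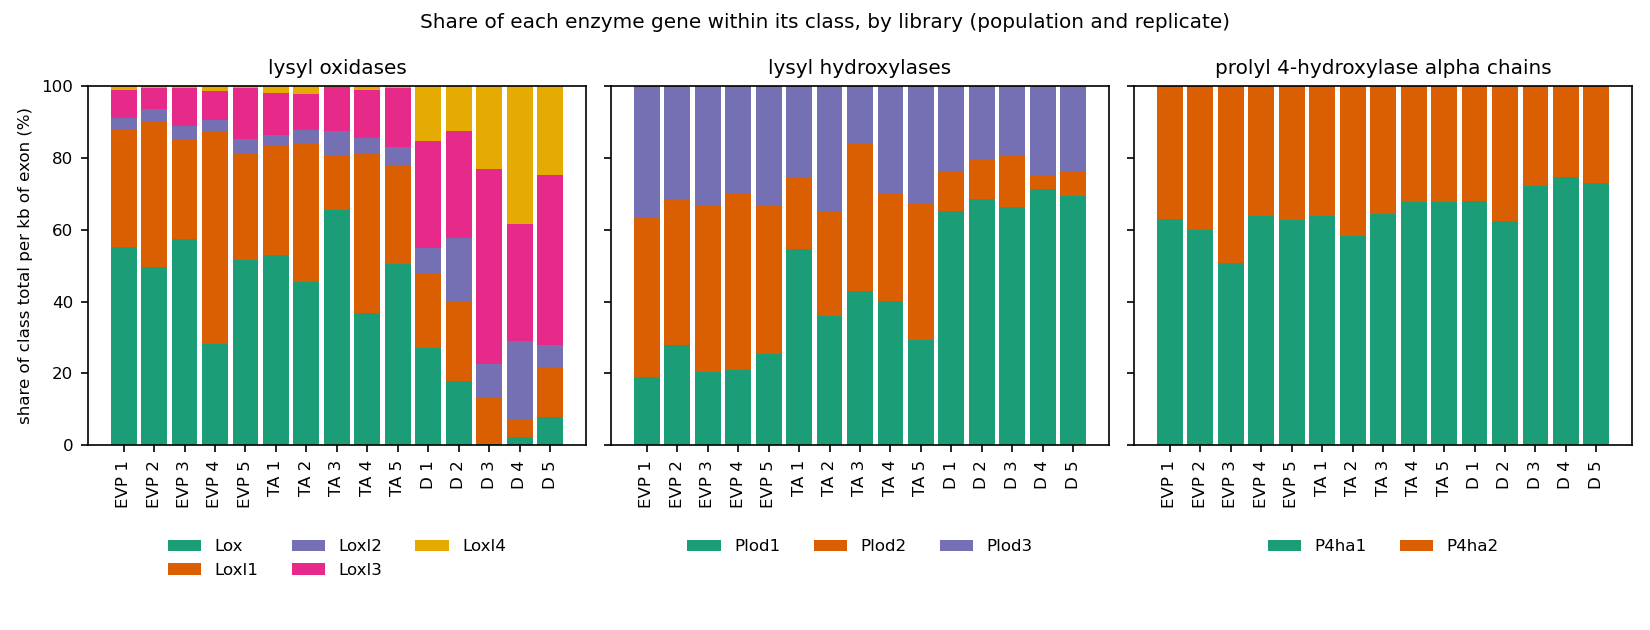
Share (%) of each gene in the summed normalized counts per kb of exon of its enzyme class, stacked for each of the 15 libraries. *Plod1* grows from 18.9% to 28.0% of the lysyl hydroxylases in EVP libraries to 65.2% to 71.2% in D libraries, and *Loxl3* and *Loxl4* take larger shares of the small lysyl oxidase total in D.

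The alpha chains of prolyl 4-hydroxylase, which carry its catalytic site, were the enzymes of the 10 with the smallest spread among D libraries. *P4ha2* (chr11:54100095-54131665) held 7391, 5653, 9011, 4309 and 8885 normalized counts in EVP, 2978, 2692, 3507, 1753 and 5141 in TA, and 1918, 1487, 1484, 1299.6 and 1381 in D. EVP lay above D throughout, and TA touched both ranges with 1 library each. The mean was 4.66-fold higher in EVP than in D and the log2 fold change was 2.18 ± 0.25 (SE, adjusted p = 5.35e-06, limma). *P4ha1* (chr10:59323296-59373304) ran from 5040.0 to 9900.3 in EVP, from 2409 to 7087 in TA and from 1625 to 2670.3 in D. Its EVP mean was 2.95-fold that of D, with a log2 fold change of 1.53 ± 0.27 (adjusted p = 0.000371). The windows before the RefSeq starts of these genes, shown above, held 3 matches each to the letters of the hypoxia element. That of *P4ha2* lies inside the gene as counted here. GC made up 69.6% of the window of *P4ha1*, 70.0% of that of *P4ha2* and 61.6% of that of *Plod1*. How common 3 matches are among all windows was not tested.

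Per kb of exon, the order of the genes differed between populations. In EVP it was led by *Lox* with 7865 ± 2282 normalized counts per kb and *Loxl1* with 5997 ± 1759, whose ranges overlapped (SD, n = 5). Both stood clear of *P4ha1* at 1696 ± 497, and the ranges of neighbours overlapped from *P4ha1* down through *Loxl3*, *P4ha2*, *Plod2*, *Plod3*, *Loxl2* and *Plod1*. *Loxl4* was last at 137 ± 49.1, apart from *Plod1* at 538 ± 113. In D the first place belonged to *Plod1* with 1045 ± 315 per kb, clear of *P4ha1* at 575 ± 102. *Plod3* at 348 ± 123 and *P4ha2* at 243 ± 38.3 overlapped each other, and *Plod2* at 131 ± 47.4 stood apart from its neighbours on either side. Below them lay the 5 lysyl oxidases, from *Loxl3* at 30.4 ± 12.3 to *Loxl2* at 8.77 ± 3.14, each overlapping the next. In TA all neighbours overlapped, in the order *Lox*, *Loxl1*, *P4ha1*, *Loxl3*, *Plod1*, *P4ha2*, *Plod2*, *Plod3*, *Loxl2* and *Loxl4*.

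Between EVP and TA, 4 of the 10 genes were called, all higher in EVP, beside 3.50% of all genes called and 1.56% called higher in EVP. These were *Loxl1* with a log2 fold change of 1.98 ± 0.44 (adjusted p = 0.0177), *Loxl2* with 1.40 ± 0.33 (adjusted p = 0.0252), *Plod2* with 1.19 ± 0.28 (adjusted p = 0.0259) and *P4ha2* with 1.17 ± 0.25 (SE, adjusted p = 0.0162, limma). Only *Loxl1* had libraries that did not overlap, as did 4.29% of all genes (2.70% with EVP above TA and 1.59% with TA above EVP). On whole reads edgeR called 2 of the 10 genes, beside 2.60% of all genes, and DESeq2 called 7, beside 7.44%. The other genes had adjusted p-values from 0.0744 for *Loxl3* and *Plod3* to 0.887 for *Plod1*. Of the 25 pairs of an EVP with a TA library, EVP was higher in 22 for each of *Loxl3*, *Plod3* and *P4ha1*. For *Lox* the log2 fold change was 1.60 with an interval from -0.15 to 3.34 (adjusted p = 0.385). That of *Plod1* was -0.16 with an interval from -0.63 to 0.31, and it was 9.24e-05 without the replicate 1 libraries. None of the 10 genes passed in limma without the 3 replicate 1 libraries, when 104 genes were called in place of 893. Without these libraries *Loxl1* had a log2 fold change of 1.945 (adjusted p = 0.1002) and *Loxl2* of 1.197 (adjusted p = 0.161). *Plod2* then had 1.019 (adjusted p = 0.192) and *P4ha2* 1.129 (adjusted p = 0.119). In that fit 8 of the 10 had an unadjusted p under 0.05, beside 15.4% of all genes. Without TA replicate 5, 7 of the 10 passed, beside 4.75% of all genes (1214 in place of 893). A single library decided some of the 4 calls. Without EVP replicate 3 *Loxl1* alone passed, beside 1.85% of all genes. Without EVP replicate 1, EVP replicate 2, TA replicate 1 or TA replicate 4, 2 genes passed, beside 1.68% to 2.94% of all genes. All genes called fell to 429 without EVP replicate 2, 472 without EVP replicate 3 and 560 without TA replicate 3.

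Between TA and D, 7 of the 10 genes were called, beside 12.5% of all genes. Higher in TA were *Lox*, *Loxl1*, *Loxl2*, *Loxl3*, *Plod2* and *P4ha2*, beside 8.21% of all genes, and *Plod1* was higher in D, beside 4.31%. *Lox* had a log2 fold change of 9.15 ± 0.83 (adjusted p = 8.51e-07), *Plod2* of 1.86 ± 0.28 (adjusted p = 0.000255) and *P4ha2* of 1.01 ± 0.25 (SE, adjusted p = 0.0125, limma). Without the 6 libraries with olfactory receptor reads *P4ha2* had 1.09 and did not pass (adjusted p = 0.205). Libraries of TA and D did not overlap for *Lox*, *Loxl1*, *Loxl2*, *Loxl3* and *Plod2*, as for 9.25% of all genes (5.56% higher in TA and 3.69% higher in D). With edgeR 7 of the 10 genes were called, beside 10.1% of all genes, and with DESeq2 8, beside 16.4%. *Plod1* had a log2 fold change of -0.77 ± 0.22 (adjusted p = 0.0294), which did not pass without TA replicate 2, TA replicate 4, D replicate 3, D replicate 4 or D replicate 5 (adjusted p = 0.0515 to 0.0912). Not called were *Loxl4* with 1.38 (adjusted p = 0.182), *P4ha1* with 0.63 (adjusted p = 0.155) and *Plod3* with 0.26 and an interval from -0.34 to 0.85 (adjusted p = 0.685). *Loxl4* passed without TA replicate 3, with a log2 fold change of 2.06 (adjusted p = 0.00538). The comparisons share libraries, so their calls are not independent of each other.

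On the log2 scale, with EVP at 0 and D at 1, the mean of TA lay at 0.15 for *Lox*, 0.22 for *Loxl1*, 0.23 for *Loxl2*, 0.21 for *Loxl3* and 0.17 for *Plod1*. It lay at 0.39 for *Plod2*, 0.54 for *P4ha2* and *Loxl4*, 0.59 for *P4ha1* and 0.79 for *Plod3*. The TA libraries taken singly lay from -0.36 to 0.85 for *Plod1*, from 0.06 to 1.43 for *Plod3* and from -0.04 to 1.44 for *Loxl4*, so these positions are loosely set. Over the 4859 genes called between EVP and D the median position was 0.36. The TA libraries differed among themselves. TA replicate 5 was the highest of its population for 8 of the 10 genes, and TA replicate 4 the lowest for 7. TA replicate 5 had the lowest endothelial marker sum of its population, 5979 against 17914 to 72865 in the others, and a fibroblast marker sum of 62858, the median of the TA libraries. Its part in the TA results was not tested beyond leaving it out.

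The partners of these enzymes in collagen modification and secretion moved in a less uniform way. Of 15 partners, 9 were higher in EVP than in D, 2 were higher in D and 4 were not called, with a median log2 fold change of 0.87. *P4ha3*, another alpha chain, reached 1279.6 ± 424 normalized counts in EVP against 4.90 ± 7.15 in D (mean ± SD of 5; adjusted p = 3.29e-07, limma). *P3h3*, a prolyl 3-hydroxylase, had a log2 fold change of 2.81 (adjusted p = 1.51e-06). In the other direction, *P3h2*, a prolyl 3-hydroxylase known for acting on basement membrane collagen, had 83.9 ± 26.9 in EVP and 629 ± 198 in D (adjusted p = 3.63e-06). *Colgalt2*, a collagen galactosyltransferase, had 54.5 ± 35.9 and 404 ± 123 (adjusted p = 0.00989). *Colgalt1*, *Ppib*, *Fkbp10* and *P3h4* were not called, with log2 fold changes from 0.35 to 0.80. Between EVP and TA 3 partners were higher in EVP and 1 in TA, and between TA and D 3 were higher in TA and 2 in D.

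Among the substrates of the enzymes, 7 of 9 fibrillar collagen genes were higher in EVP than in D and none was higher in D, with a median log2 fold change of 6.78. *Col3a1* reached 426058 ± 133223 normalized counts in EVP against 882 ± 492 in D (mean ± SD of 5; adjusted p = 1.44e-10, limma), and *Col5a2* had 34247 ± 5801 and 308 ± 31.8 (adjusted p = 5.31e-11). *Col2a1* and *Col11a2* were not called, with EVP means of 7.49 and 13.2. Of 6 basement membrane collagens 3 were higher in EVP and 2 in D, with a median of 2.91. The 2 were *Col4a1* and *Col4a2*, which encode the chains of the common type IV collagen, with log2 fold changes of -2.37 (adjusted p = 3.20e-05) and -2.48 (adjusted p = 6.68e-06). *Col4a2* had 6056 ± 2969 normalized counts in EVP against 31452 ± 8713 in D. The rarer chains *Col4a3* and *Col4a5* were higher in EVP, with 3.03 (adjusted p = 0.0185) and 5.35 (adjusted p = 2.51e-05), and *Col4a6* was not called (2.79, adjusted p = 0.146). Besides *Plod1*, the genes of the 7 lists called higher in D were *P3h2*, *Colgalt2*, *Col4a1*, *Col4a2*, *Tll1*, *Atox1* and *Ankrd37*, the last 3 described below. Of the 10 endothelial markers, 9 were higher in D as well. Whether these genes move together was not tested.

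Of 8 genes for procollagen cleavage, 5 were higher in EVP, *Tll1* was higher in D and *Tll2* and *Adamts3* were not called. *Pcolce2*, an enhancer of procollagen cleavage, reached 3049 ± 1563 normalized counts in EVP against 11.2 ± 9.55 in D (mean ± SD of 5; adjusted p = 1.36e-08, limma), and *Pcolce* had a log2 fold change of 4.10 (adjusted p = 5.83e-08). Of 9 partners of lysyl oxidases, 5 were higher in EVP and 1 in D. *Efemp2*, which brings lysyl oxidase to elastin, had 11456 ± 2285 in EVP and 181 ± 33.6 in D (adjusted p = 2.06e-10). *Postn*, which encodes the matrix protein periostin, had a log2 fold change of 7.57 (adjusted p = 3.22e-10). *Atox1*, a copper chaperone, was higher in D, with -1.11 (adjusted p = 0.00135). *Atp7a*, which loads copper into lysyl oxidases, had 0.09 (adjusted p = 0.889), and *Sparc* and *Thbs1* were not called either, with 0.24 and -0.35.

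Other oxygen-dependent hydroxylases and genes known to respond to hypoxia were counted as lists. Of all genes tested, 11.6% were called higher in EVP than in D and 7.46% higher in D. Of 6 further 2-oxoglutarate hydroxylases only *P4htm*, a transmembrane prolyl 4-hydroxylase, was called between EVP and D, at 3.91 (adjusted p = 0.0217). *Jmjd6*, *Egln2* and *Egln3* had -0.53, 0.02 and -0.56 with adjusted p-values of 0.126 to 0.956. Of 10 hypoxia responsive genes, *Vegfa* (3.64, adjusted p = 2.38e-05) and *Bnip3* (1.53, adjusted p = 0.0131) were higher in EVP and *Ankrd37* (-2.24, adjusted p = 0.00425) was higher in D. The other 7 were not called, among them the glycolytic gene *Pgk1* at -0.04 and the glucose transporter gene *Slc2a1* at -0.14. The median log2 fold change of the list was 0.13, beside 0.46 for all genes tested. A part of oxygen in the enzyme results was not tested.

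**Figure D4:**
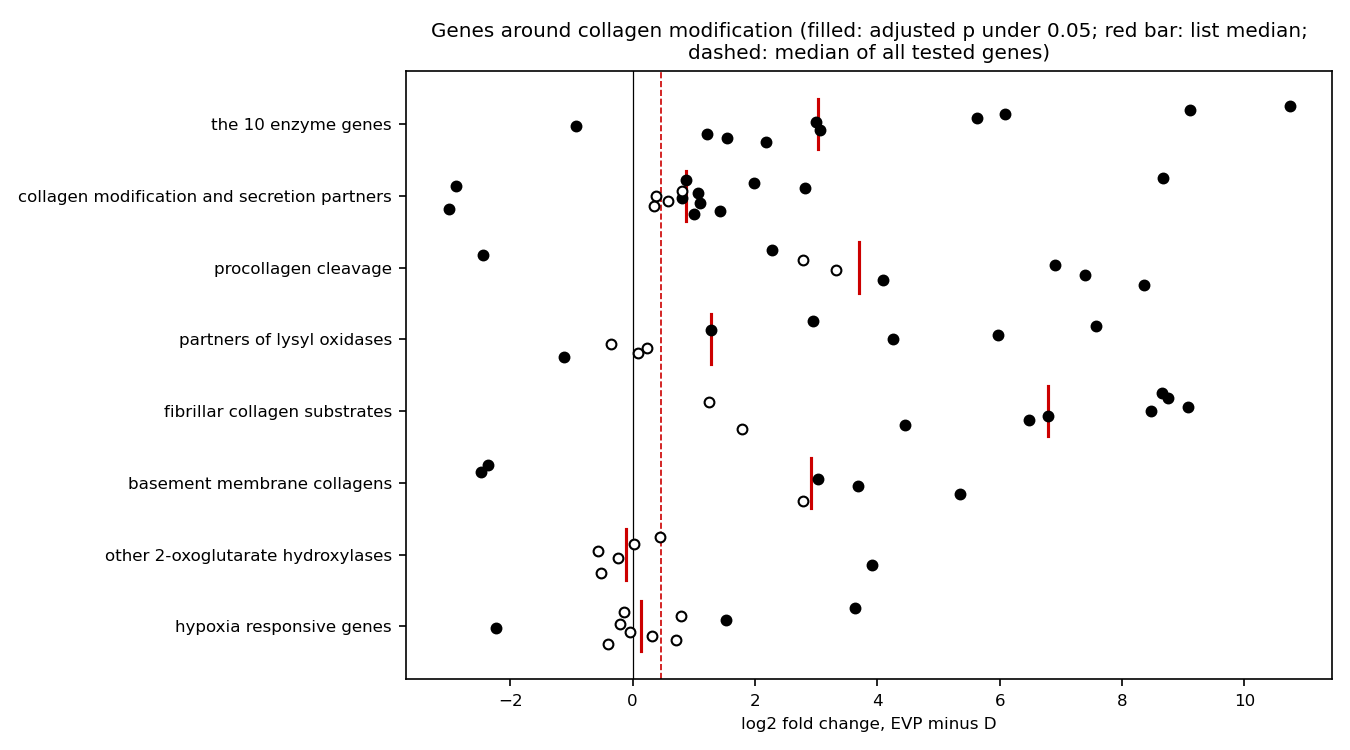
Log2 fold change of EVP over D for the 10 enzyme genes and for 7 lists around collagen modification, with 1 point per gene, filled where the adjusted p was under 0.05. Red bars mark list medians, 3.02 for the 10 genes and 6.78 for the fibrillar collagens, and the dashed line the median of all genes tested, 0.46.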

How the data were processed

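The authors prepared libraries by a modified Smart-Seq2 protocol with oligo-dT priming, aligned reads with STAR 2.5.3a to GRCm38 (Ensembl 91), counted them with HTSeq-count 0.6.1 and normalized with DESeq2 1.10.1. Values as deposited are a signal per gene, obtained when the authors divided each library's counts by its size factor. All values were whole multiples of the smallest (100%, tolerance 0.001), so reads were recovered. Tables of the authors' own comparisons (fold changes and p-values) were not used.

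Log2(normalized count + 1) of 25549 genes with a mean of at least 5 was fitted with limma 3.58.1 in R 4.3.3 (trend, 1 coefficient per population, 15 libraries, two-sided), with Benjamini-Hochberg adjustment over all of them and a threshold of 0.05. Folds are ratios of means, and errors after ± are SDs for levels and SEs for log2 fold changes. Exon lengths came from GENCODE M21 (99.8% of genes), and gene identity from the deposited symbols. Neither the strand setting nor the origin of replicates is given in the sources used here, and same-numbered libraries were not treated as pairs. edgeR 4.0.16 and DESeq2 1.42.0 on the recovered reads, other scalings, filters and pseudocounts, and fits without each library were alternatives. The fits were tested on simulated data.

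The 10 genes and all lists were chosen with earlier results of these data known. Of each list, the 2 genes with the smallest and the 2 with the largest adjusted p between EVP and D are named, with those of opposite sign and, after their values were seen, the remaining members of small counts. For each enzyme gene, the 2 genes most like it over the libraries are named.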

Additional observations from a re-analysis of the deposited data

Results flagged for a closer look

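Of 30 groups of 5 libraries, 4 held a library whose gap to its nearest neighbour exceeded 0.71 of the range of the group, where chance alone gives about 1 group in 20. The lowest EVP value of *Lox* was 18759.6 normalized counts in replicate 4, with a gap of 0.722 of the range. The same library held the lowest EVP value of *Loxl2*, 2323 normalized counts, at 0.732, but the highest of *Loxl1*. TA replicate 5 held the highest TA value of *Loxl3*, 7052 normalized counts, at 0.822, and without it the log2 fold change of EVP over TA was 1.47 (adjusted p = 0.00582, limma). The lowest D value of *P4ha1* was 1625 normalized counts in replicate 2, at 0.789.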

How the results depend on the processing

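Between EVP and D, all 10 genes were called in each of the 15 fits that left out 1 library and in 11 of 13 other settings. They were 9 without the replicate 1 libraries, where *Plod3* did not pass, and 8 without the 6 libraries with reads on over 50% of the olfactory receptor genes, chosen after seeing the data, where *Plod1* did not pass either. All genes called numbered 4859, 7609 with array weights and 4120 to 5152 with 1 library left out. Without the replicate 1 libraries they numbered 4805, and without the 6 libraries 5121. The comparison of EVP with TA was the least stable. In place of 4 of the 10 genes, 0 were called with array weights, without the replicate 1 libraries and without the 6 libraries, 2 with edgeR, 7 with DESeq2 and 1 to 7 with 1 library left out. In the 3 limma fits with 0 calls, 8, 8 and 2 of the 10 genes had an unadjusted p under 0.05, beside 3843, 3933 and 2492 of all 25549 genes. All genes called were 893, 693 with array weights and 1900 with DESeq2. They were 104 without the replicate 1 libraries, 22 without the 6 libraries and 429 to 1214 with 1 library left out. The log2 fold change of *Plod1* turned from -0.16 to 9.24e-05 and 0.0398 in the last 2 reduced fits. *Lox* passed in the fit of EVP and TA alone (adjusted p = 0.0309). Between TA and D, 7 genes were called, 5 without the 6 libraries and 6 to 8 with 1 left out. All genes called were 3199, and 2999 without the 6 libraries. They were 5054 with array weights, 2117 after quantile normalization and 2417 to 3501 with 1 left out. *Plod1* passed in 9 of 13 settings there and *P4ha2* in 12. The cause of these changes was not tested. With the replicate number as a block, 10, 7 and 8 of the 10 genes were called in the 3 comparisons, and 5710, 1262 and 4047 of all genes. *Loxl3*, *Plod3* and *P4ha1* were gained between EVP and TA and *P4ha1* between TA and D. Same-numbered libraries correlated in their deviations over 0.1 in 11 of 15 cases but not in all (range -0.14 to 0.69), and in 12 of 15 the best match was the own number, a hint from the data and not from the design. Values of *Lox* in D reached 1 read, in replicate 3, which had 19952975 reads on genes. Replicate 1, the D library with the fewest reads on genes (12456809), held 109 reads of *Lox*.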

Other observations

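The genes whose log2 values followed each enzyme gene most closely were ranked by the root mean square difference over the 15 libraries after centring. The distance is not scaled by how much a gene varies, so its size cannot be compared between enzyme genes. *Plod1*, which varied little, had the smallest distances, *Map1s* at 0.17 and *Setd3* at 0.20. *Lox* was nearest to *Mfap5*, a gene of elastic microfibrils that is also in the fibroblast marker list, at 0.63, and to *Lrrc17* at 0.98. *Loxl1* was nearest to *Ccl11* at 0.60 and *Efemp1* at 0.62, and *Loxl2* to *Efemp2* at 0.38 and the fibrillar collagen gene *Col5a2* at 0.43. *Loxl3* was nearest to *Efna2* and *Enpp1* at 0.49 and 0.50, and *Loxl4* to *Calml4* and *Prcd* at 0.69 and 0.71. *Plod2* and *P4ha2* shared *Kctd11*, at 0.43 and 0.36, and their closest genes were *Errfi1* at 0.39 and *Fkbp11* at 0.29. *Plod3* was nearest to *Emilin1* at 0.29 and *Fads1* at 0.30, and *P4ha1* to *Kdelr3*, a receptor that returns proteins to the endoplasmic reticulum, at 0.29 and *Gpx8* at 0.33. These distances describe these libraries and were not tested.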
